A study of Homo sapiens with 5 samples.

Results

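The RNA recovered from 2 control libraries of a CLIP-Seq experiment was compared: cells of the human embryonic kidney line HEK-293 transfected with GFP-(GP)10 by lipofectamine, and HEK-293 cells that were not transfected. GFP-(GP)10 is GFP joined to 10 glycine-proline repeats, and poly-GP is one of the dipeptide-repeat proteins made from the expanded C9ORF72 repeat of ALS and FTD. Both were controls for GFP-(GR)50, in which GFP carries 50 glycine-arginine repeats, and belonged to experiment 2. Every region listed for them was taken, 348 for GFP-(GP)10 and 1339 for untransfected cells, 1687 of the 3147 regions in the 5 libraries of the series. In CLIP-Seq, ultraviolet light joins RNA to protein in living cells, the lysate is treated with RNase, a protein is pulled down, and the RNA that comes with it is sequenced. Cells were irradiated with 100 mJ/cm2 at 254 nm, the lysate of both libraries received RNase I at 0.02 units/ml, GFP-Trap magnetic beads were used for 1.5 hours, and RNA was taken from the size range of the membrane that was chosen for GFP-(GR)50. Untransfected cells hold no GFP for the beads, so their list is the RNA that the procedure recovers without a bait. A GFP library, also transfected, exists from experiment 1, where RNase I was at 0.04 units/ml; it serves below as a further list, not as a matched control.

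Each side had 1 library, so no test between conditions was possible, and no p-value is given. Shares carry exact Clopper-Pearson 95% intervals, ratios of shares carry 95% intervals, and both cover counting error alone. A ratio past 2-fold was counted as higher or lower. The unit is the deposited read count with multimapping reads scaled by the authors (scaled reads), and a second column counts reads that map to one place. The GFP-(GP)10 list summed to 7468 scaled reads and the untransfected list to 22519. Reads that map to one place came to 20.4% and 38.2% of these totals. No region had fewer than 5 scaled reads, so a gene that is not listed may still have had reads, and the total of a list is not the depth of its library. Because the untransfected list held 3.02 times the reads, a region with 5 reads in GFP-(GP)10 has the same share of its list as one with 15.1 reads in untransfected cells. The median region had 6.41 scaled reads in GFP-(GP)10 and 6.50 in untransfected cells, close to the minimum in both.

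RNAs that are abundant and folded are the usual background of pull-downs. Ribosomal RNA (rRNA) forms the core of the ribosome, and transfer RNA (tRNA) carries amino acids to it. Both are made from many near-identical gene copies. Small nuclear RNAs (snRNA) such as U1 and U2 form the spliceosome, and small nucleolar RNAs (snoRNA) guide the processing and modification of rRNA. RNA polymerase III transcribes tRNA genes from an internal promoter, whose B box lies in the part of the gene that becomes the T loop of the tRNA.

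The letters of 8 listed regions, 5 of GFP-(GP)10 and 3 of untransfected cells, lie whole inside RefSeq promoter windows (GRCh38.p14). Left out is a repeat-element region of B4GALT1 (untransfected, 5 reads), whose longest run of 1 letter was 4. The other 7 are shown: tRNA, snRNA and unannotated regions, an intron region and an exon region. All are written 5′ to 3′ on the strand of the region. Capitals mark matches to GTTCNANNC, the shared letters of the T loop and B box. The motif was searched on the strand of the region, and it occurs on one strand in 261 of 35116 promoter windows of 65 bases (0.743%), and on either strand in 1.63%. The tRNA regions were listed in GFP-(GP)10 and not in untransfected cells, with 11.1 scaled reads (tRNA-Asn-AAC), 5.21 (tRNA-His-CAY, chromosome 1) and 5.32 (tRNA-His-CAY, chromosome 15).
tRNA-Asn-AAC, chr1:143735919-143735966 (minus strand): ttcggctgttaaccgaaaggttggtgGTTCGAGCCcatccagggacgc
tRNA-His-CAY, chr1:148281373-148281437 (plus strand): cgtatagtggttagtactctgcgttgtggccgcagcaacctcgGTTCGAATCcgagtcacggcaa
tRNA-His-CAY, chr15:45201159-45201223 (plus strand): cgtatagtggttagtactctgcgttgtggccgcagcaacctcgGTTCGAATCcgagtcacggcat
Unnamed region without annotation, chr16:636734-636775 (minus strand): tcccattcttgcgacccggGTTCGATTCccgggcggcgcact
MED12L intron, chr3:151203412-151203449 (plus strand): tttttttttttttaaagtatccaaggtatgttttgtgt
TSPAN14 exon, chr10:80525151-80525191 (plus strand): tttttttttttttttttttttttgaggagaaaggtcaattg
RNU7-1, chr12:6943830-6943879 (plus strand): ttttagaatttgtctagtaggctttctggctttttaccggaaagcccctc

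The copies of tRNA-His-CAY share 64 of 65 letters, and neither had a read that maps to one place, so their reads cannot be assigned to one copy. The unnamed region on chromosome 16 carries no annotation in the deposited list but holds the same 9-letter motif as the tRNAs. It had 13.5 scaled reads in GFP-(GP)10, 13 of them mapping to one place, and was also listed in the GFP library and in GFP-(GR)50 of experiment 2, but not in untransfected cells. The MED12L region (5 reads, GFP-(GP)10) begins with a run of 13 T and the TSPAN14 region (12.0 reads, untransfected) with a run of 23. No repeat was annotated opposite the MED12L region, and an LTR element lies opposite that of TSPAN14. Each is 1 example and was not shown to be typical of its class. RNU7-1 encodes U7, the snRNA that takes part in histone mRNA processing, and its region (9 reads) was listed in untransfected cells and not in GFP-(GP)10. These reads lie below the 15.1 that correspond to the minimum of GFP-(GP)10, so an equal share would not have been listed there.

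The first comparison asks which RNA types made up the 2 backgrounds. tRNA set them furthest apart: 68 of 348 regions (19.5%, 15.5 to 24.1) were tRNA in GFP-(GP)10 and 7 of 1339 (0.523%, 0.210 to 1.07) in untransfected cells, a ratio of 37.4 (17.3 to 80.6). Of the 10 classes with enough regions to compare, 3 had a share of regions past 2-fold higher in GFP-(GP)10 (30.0%) and 1 past 2-fold lower (10.0%). The higher classes were tRNA, rRNA (66 regions, 19.0%, against 62, 4.63%) and snoRNA with scaRNA (5 regions against 5, a ratio of 3.85, 1.12 to 13.2). Long noncoding RNA (lncRNA) was the lower class, with 8 regions (2.3%) against 67 (5%), a ratio of 0.459 (0.223 to 0.947). Exons of protein-coding genes took 3.74% and 3.29% of regions, and snRNA took 2.87% and 2.99%, with intervals of the ratio that include 1.

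By scaled reads, tRNA held 729 reads (9.76%, 9.10 to 10.5) in GFP-(GP)10 and 56.8 (0.252%, 0.192 to 0.328) in untransfected cells, a ratio of 38.7 (29.4 to 51.4). It was the 1 class of 10 past 2-fold higher (10.0%), and 5 were past 2-fold lower (50.0%). The lower classes were snRNA, introns, lncRNA, repeat elements on the strand of the region, and pseudogenes, the last with 1 region against 6 and an interval that includes 1. snRNA held 56.9 reads (0.762%) against 648 (2.88%), a ratio of 0.265 (0.199 to 0.348). rRNA, the largest class of both lists, differed by a ratio of 1.33 (1.28 to 1.38). Since the share of every class moves with that of rRNA, the shares were also taken outside rRNA: tRNA was then 23% against 0.445%, and snRNA 1.80% against 5.08%. Introns were no longer past 2-fold lower (0.632, against 0.474 of all reads), nor were pseudogenes (0.572), and snoRNA was past 2-fold higher (2.32, against 1.74). This total still held unannotated regions of contig ML143377.1 (1115 against 2461 reads). A group there had 362 and 716 reads, beside 362 and 717 at RNA28SN3. With contigs also left out, tRNA was 37.0% against 0.568%, and snRNA kept its call (0.448). lncRNA (0.560) and repeat elements (0.545) lost theirs, and regions without annotation became past 2-fold lower (0.455). Among reads that map to one place, 366 of 1522 (24.0%) were tRNA in GFP-(GP)10 and 42 of 8606 (0.488%) in untransfected cells, a ratio of 49.3 (35.7 to 69.5).

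**Figure D1:**
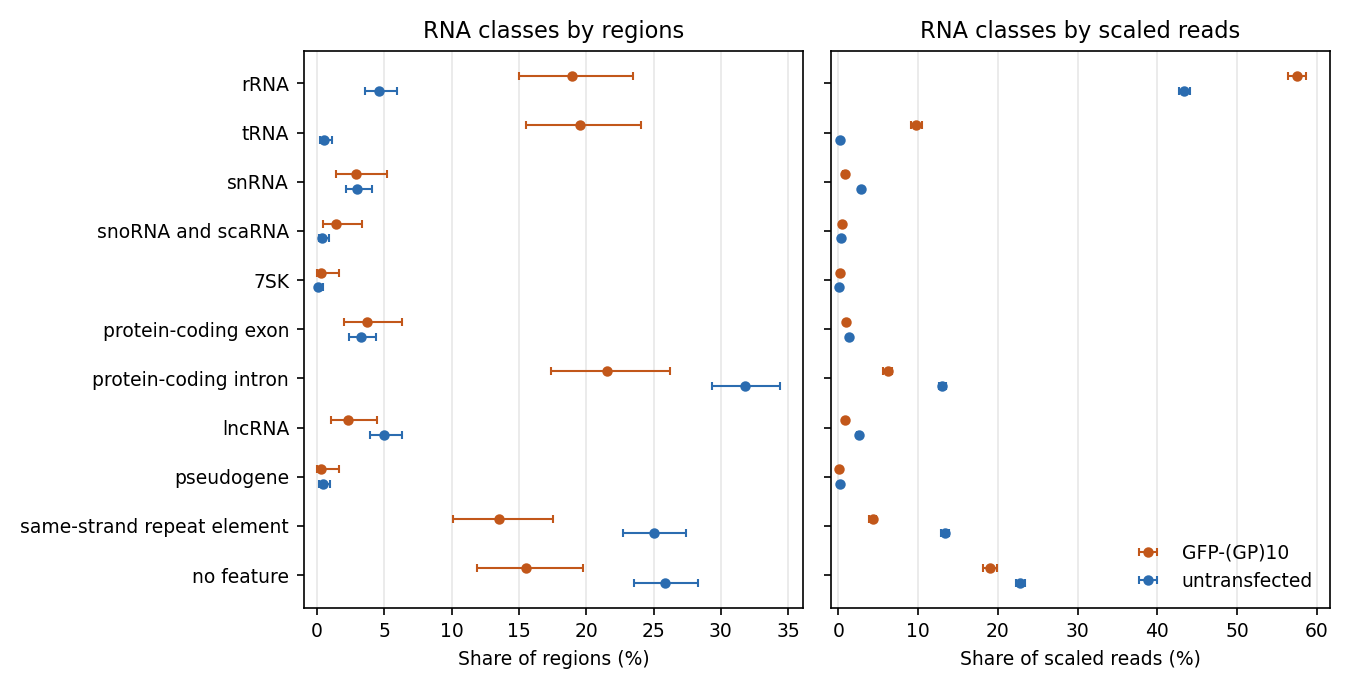
Share of regions (left, %) and share of scaled reads (right, %) of each RNA class in GFP-(GP)10 (orange) and untransfected cells (blue); points are the 1 library of each side and bars exact 95% intervals of counting error. tRNA stands at 19.5% against 0.523% of regions and 9.76% against 0.252% of reads.

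The direction for rRNA, introns and the reads of exons depended on which regions were taken. So did the calls for snRNA, snoRNA, lncRNA, exon and repeat-element regions. With the untransfected list restricted to its 125 regions of at least 15.1 reads, the ratio for rRNA regions became 0.624 (0.443 to 0.879), against 4.10 (2.96 to 5.67) over all regions. Introns of protein-coding genes went from 21.6% against 31.8% of regions, a ratio of 0.677 (0.546 to 0.840), to a ratio of 4.49 (2.01 to 10.1), since 6 of those 125 regions (4.80%) were introns. The region share of snRNA, with a ratio of 0.962 over all regions, became past 2-fold lower there (0.257, 0.117 to 0.563) and with the 348 regions of most reads taken from each list (0.323, 0.161 to 0.648). With those 348 the calls for snoRNA (1.00, 0.292 to 3.42) and lncRNA (0.800, 0.320 to 2.00) were lost. Repeat elements became past 2-fold lower by regions (0.456, 0.334 to 0.623, against 0.540 over all regions). Exon regions, with a ratio of 1.14 over all regions, became past 2-fold higher with those 348 (3.25, 1.07 to 9.87). Against the 125 regions, of which 1 was an exon, their ratio was 4.67 (0.617 to 35.3). By reads the exon ratio went from 0.743 to 2.61 and 6.21. Without regions opposite a repeat the snoRNA ratio was 1.84, and with at least 5 reads that map to one place the lncRNA ratio was 0.598. None of the 125 regions was tRNA, so the direction for tRNA held there too. The ratio for tRNA regions also held with at least 5 reads that map to one place (34.5) and with the 348 regions of most reads taken from each list (34.0).

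The tRNA regions of GFP-(GP)10 had between 5 and 35.0 scaled reads, with a median of 8, and carried 18 tRNA names for 12 amino acids. The 7 regions of untransfected cells had 5.50 to 10.0 reads, with a median of 8.10, and carried 4 names for 3 amino acids. Reads that map to one place numbered at least 5 in 32 of the 68 regions, and 25 regions had none. The region most read in GFP-(GP)10 was tRNA-Glu-GAG (chr13:44917922-44917979, minus strand), with 35.0 scaled reads, of which 31 mapped to one place, and it was not listed in untransfected cells. tRNA for glutamate held the most reads, 175 in 13 regions (24.0% of the tRNA reads), followed by aspartate with 131 in 12 (17.9%) and lysine with 122 in 8 (16.7%). Asparagine (61.1 reads), histidine (52.9), glycine (34.9), threonine (27.8), serine (23.2), selenocysteine (8) and phenylalanine (6.50) were, like glutamate and aspartate, without a tRNA region in untransfected cells. Lysine (5 regions, 39.6 reads), tyrosine (1 region, 9.17) and arginine (1 region, 8) were the 3 that untransfected cells also held.

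The width of the regions varied between tRNAs. Regions of tRNA for aspartate had a median width of 76 bp and those for glutamate of 73 bp, near the length of a whole tRNA, and regions for lysine had a median of 39 bp. In all, 18 of the 68 regions were at least 70 bp wide. A cluster of tRNA genes on chromosome 1 (161440820 to 161470486) held 13 of the 68 regions and 138 scaled reads, with no read mapping to one place. In that cluster 4 copies of tRNA-Glu-GAG were each listed with 16.7 reads, so these regions share reads and are not independent.

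**Figure D2:**
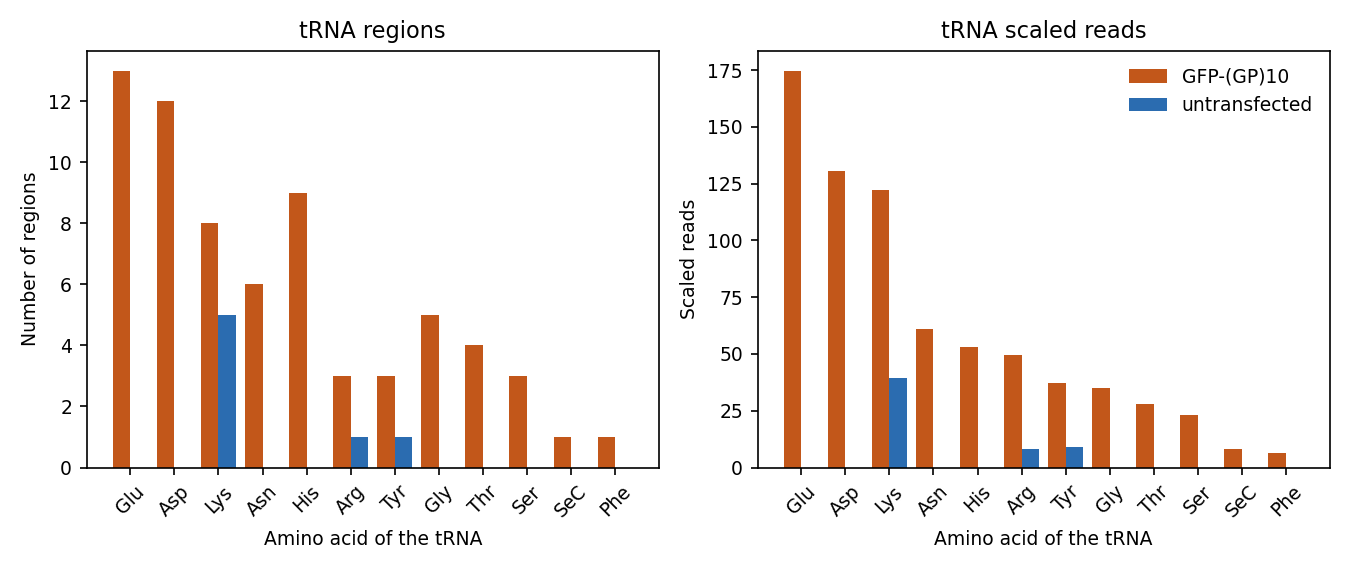
Number of tRNA regions (left) and their scaled reads (right) by the amino acid the tRNA carries (SeC, selenocysteine), in GFP-(GP)10 (orange) and untransfected cells (blue), 1 library each. Glutamate and aspartate lead in GFP-(GP)10 with 175 and 131 reads and have no bar in untransfected cells, where lysine holds 5 of 7 regions.

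The tRNA regions were matched by position, by an overlap of at least 1 bp on the same strand. Of the 68, 6 (8.82%) overlapped a tRNA region of untransfected cells, and 6 of the 7 untransfected regions (85.7%) were among them. The ratio of shares in these 6 had a median of 9.49 and a range of 2.51 to 12.1, higher in GFP-(GP)10. The direction follows from the minimum: their untransfected regions had 7.79 to 10.0 reads, so any match had a ratio of at least 1.51 to 1.94. tRNA-Arg-CGA (chr15:89335098-89335146) had 32.0 reads in GFP-(GP)10 and 8 in untransfected cells, a ratio of shares of 12.1 (5.44 to 30.3). tRNA-Tyr-TAC, in AGBL5 on chromosome 2, had 24.3 and 9.17 reads, a ratio of 8 (3.61 to 19.7). A tRNA-Lys-AAA region on chromosome 17 had 31.8 and 8.10 reads and one on chromosome 1 had 29.9 and 8.20, and both had the same first and last position in the 2 lists. Only tRNA-Lys-AAG in ARMH4, with 8.33 and 10.0 reads, had an interval of the ratio that includes 1 (2.51, 0.827 to 6.79).

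The same tRNA regions were present in the GFP library of experiment 1. Of the 68, 66 (97.1%) overlapped a region of the GFP list, and so did 60 of the 62 that were not in untransfected cells. Seen from the GFP list, where 230 regions (48.7%) were tRNA, 66 (28.7%) overlapped GFP-(GP)10 and 7 (3.04%) overlapped untransfected cells. tRNA-Glu-GAG on chromosome 13 had 568 reads there, and tRNA-Arg-CGA 304. Glutamate held 16.2% of the tRNA reads in GFP, aspartate 10.1%, lysine 16.0% and arginine 11%, against 6.83% for arginine in GFP-(GP)10. Across the 66 regions the scaled reads of the 2 libraries had a Pearson correlation of 0.664 on the log2 scale and a Spearman correlation of 0.540. This describes regions that share libraries and reads, not independent points. Over all classes, 157 of the 348 GFP-(GP)10 regions (45.1%) overlapped a region of the GFP list. GFP-(GP)10 and untransfected cells belong to the same experiment and differ in both transfection and the presence of a GFP bait, which cannot be told apart. GFP shares both with GFP-(GP)10 but lies in the other experiment, with another RNase I dose. In GFP-(GR)50 of experiment 2, which was transfected too, 30 of the 68 tRNA regions (44.1%) were listed. Over all GFP-(GP)10 regions it was 175 of 348 (50.3%), with all 66 rRNA regions among them, and outside rRNA 109 of 282 (38.7%). Of the 176 GFP-(GP)10 regions of all classes that were not in untransfected cells, 29 were listed there, and 24 of the 29 were tRNA.

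snRNA went the other way. GFP-(GP)10 had 10 snRNA regions, all of U1, with 5.22 to 6.89 reads each, and 9 of them had no read that maps to one place. Untransfected cells had 20 U1 regions (468 reads, 2.08% of the list) with up to 31.8 reads, 16 of U2 (153 reads), 2 of U5, 1 of U12 (8 reads) and 1 of U7. All 10 GFP-(GP)10 regions overlapped untransfected U1 regions. RNU1-1 had 5.50 reads in GFP-(GP)10 and 31.5 in untransfected cells, a ratio of shares of 0.526 (0.193 to 1.37), and over the 10 the median ratio was 0.527, with no single interval that excludes 1. These copies share reads, so the 10 ratios are not independent. The U2 regions, listed mainly at U2 and CCDC200, had 6.71 to 10.9 reads in untransfected cells, below the 15.1 that correspond to the minimum of GFP-(GP)10, so an equal share of U2 was not detectable in GFP-(GP)10. The regions of U5 (5.08 reads each), U12 and U7 (9 reads) lay below that level too. The same does not hold for RNVU1-7, a U1 variant with 29.7 reads in untransfected cells and no region in GFP-(GP)10. It was 1 of 4 snRNA regions above that level that were unmatched, and the reads of all 4 mapped mostly to several places (2 reads of RNVU1-7 mapped to one place).

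Other small RNAs had few regions. RN7SK, the 7SK RNA that holds the transcription elongation factor P-TEFb in check, had 10.9 reads in GFP-(GP)10 and 15.3 in untransfected cells, a ratio of shares of 2.15 (0.919 to 5.15). The U3 snoRNA genes SNORD3A and SNORD3B-1 had 8.81 and 6.31 reads in GFP-(GP)10 and 13.6 and 12.5 in untransfected cells. SNORA75, within the gene of nucleolin (NCL), had a region in GFP-(GP)10 alone, with 7 reads.

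All 66 rRNA regions of GFP-(GP)10 overlapped an rRNA region of untransfected cells, and 46 of the 62 untransfected regions (74.2%) were matched. The 44 groups of overlapping rRNA regions had a median ratio of shares of 1.25. Regions named for copies of the 45S precursor numbered 36 in GFP-(GP)10 and 23 in untransfected cells. At each of RNA28SN1 to RNA28SN5, 4 regions of GFP-(GP)10 overlapped 1 region of untransfected cells. At another stretch of RNA45SN2 and of RNA45SN3 it was 1 against 2. The number of rRNA regions, and their region ratio of 4.10, thus depend on how a stretch was divided. The median rRNA region was 894 bp wide in GFP-(GP)10 and 532 bp in untransfected cells, and the widest was 2188 bp against 5222 bp. The highest rRNA ratio, 8.08 (2.99 to 25.1), lay outside the rRNA gene clusters, in a copy of 28S sequence on chromosome X (109054150 to 109054601). It had 16.3 reads against 6.10. The untransfected reads lie below the level that corresponds to the minimum of GFP-(GP)10, so a match there could only be higher in GFP-(GP)10. The region was 451 bp wide in GFP-(GP)10 and 114 bp in untransfected cells, so the 2 counts cover unlike stretches.

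The second comparison asks whether the lists held the same positions. In all, 172 of 348 GFP-(GP)10 regions (49.4%, 44.1 to 54.8) overlapped an untransfected region, and 146 of 1339 untransfected regions (10.9%, 9.28 to 12.7) overlapped a GFP-(GP)10 region. That left 176 (50.6%) and 1193 (89.1%) in one list alone. For untransfected cells most of this lies near the minimum: of the 125 regions with at least 15.1 reads, 96 (76.8%, 68.4 to 83.9) were matched, and of the 90 with at least 20 reads, 78 were (86.7%). In GFP-(GP)10, 46 of the 50 regions with at least 20 reads were matched, and all 4 that were not are tRNA. With at least 10 reads, 22 of 89 were unmatched, and 15 of the 22 were tRNA.

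**Figure D3:**
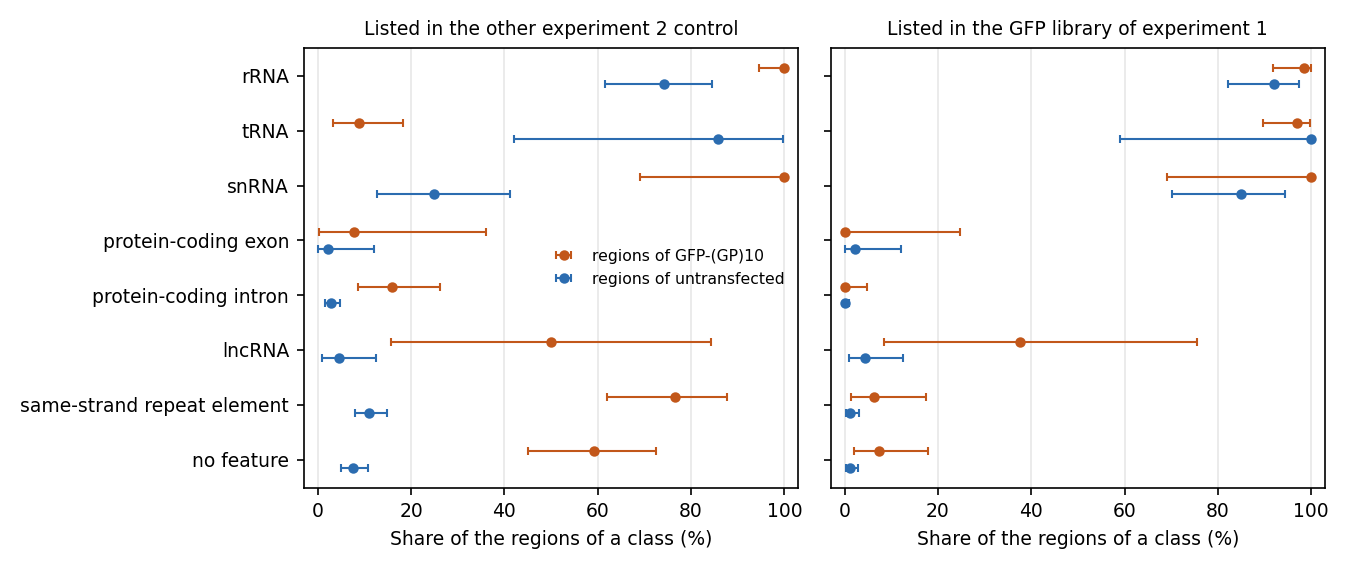
Share (%) of the regions of each class, for GFP-(GP)10 (orange) and untransfected cells (blue), that overlap a region of the other list (left) or of the GFP library of experiment 1 (right); points are 1 library each and bars exact 95% intervals. The tRNA regions of GFP-(GP)10 sit at 8.82% on the left and 97.1% on the right, while introns sit at 0% on the right for both lists.

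Overlapping regions were joined into 142 groups, and the share of the list was compared in each. It was past 2-fold higher in GFP-(GP)10 in 22 groups (15.5%) and past 2-fold lower in 3 (2.11%), with a median ratio of 1.25. The minimum of 5 reads fixes much of this imbalance, since a group with fewer than 15.1 untransfected reads can be matched only with a ratio above 1. There were 42 such groups, and 20 of them were past 2-fold higher. Of the other 100 groups, 2 were past 2-fold higher (EOMES and RN7SK) and 3 past 2-fold lower, with a median ratio of 1.07. The interval lay above 1 in 18 of all 142 groups and below 1 in 1. Outside rRNA there were 98 groups with a median ratio of 1.30, and 6 of the 19 past 2-fold higher were tRNA, all among those fixed in direction. Beyond tRNA, an intron region of EOMES, a T-box transcription factor, had 19.0 reads in GFP-(GP)10 and 24.6 in untransfected cells, a ratio of 2.33 (1.19 to 4.33), in a pair whose starts differ by 2 bp and whose ends are the same. The lowest ratios were those of an XIST group (0.476), of U1 copies, of OXSR1, a kinase (7 against 36.0 reads, 0.586), and of an intron of SRGAP2B (10.1 against 49.2 reads, 0.622, 0.278 to 1.23). Of the 126 pairs with 1 region on each side, 5 had the same first and last position. Over the 98 groups outside rRNA the reads of the lists correlated with a Pearson value of 0.699 on the log2 scale and a Spearman value of 0.301. The 98 include regions that share multimapping reads and unannotated contig regions with reads like those of rRNA copies. Over the 62 groups on the main chromosomes outside structured RNA, the Pearson value was 0.546 and the Spearman value 0.516.

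**Figure D4:**
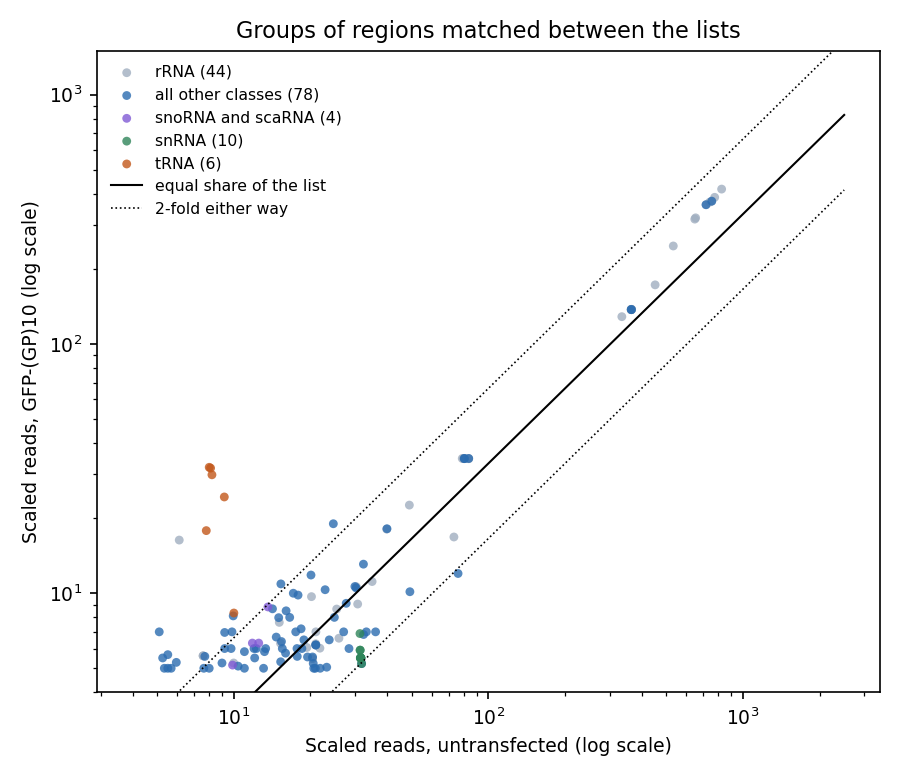
Scaled reads of each of the 142 groups of overlapping regions in untransfected cells (horizontal, log scale) and in GFP-(GP)10 (vertical, log scale); the solid line is an equal share of the 2 lists and the dotted lines are 2-fold either way. The 6 tRNA groups lie above the upper dotted line, and the 10 snRNA groups lie below the solid line, near the lower dotted line.

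Outside structured RNA and extra contigs, 176 regions of GFP-(GP)10 and 1194 of untransfected cells remained, narrow in both lists (median width 49 and 50 bp) and read mostly from one place (94.2% and 88.8% of scaled reads). SINE elements are short interspersed repeats, mostly Alu in human cells, whose copies end in an A-rich tail. A SINE on the strand opposite the region was annotated for 107 of the 176 (60.8%, 53.2 to 68.1) and 685 of the 1194 (57.4%, 54.5 to 60.2), a ratio of 1.06 (0.932 to 1.20). Over all regions the same shares were 30.7% and 51.5%, a ratio of 0.597, so leaving out structured RNA and contigs moved the ratio to near 1. Over all regions, 3 of 5 repeat types on the same strand (60.0%) and 3 of 6 on the opposite strand (50.0%) were past 2-fold lower in GFP-(GP)10, and none was past 2-fold higher (0.0% for each strand). The 3 on the same strand (SINE, LTR and DNA elements) had 1 or 2 regions in GFP-(GP)10 and intervals that include 1. Outside structured RNA and contigs, LTR elements alone were past 2-fold lower, on either strand, with intervals that include 1. There LINE elements on the opposite strand had a ratio of 0.810, and DNA elements (2.26, 0.832 to 6.15) and low-complexity sequence (2.47, 0.794 to 7.66) were past 2-fold higher, with 5 and 4 regions in GFP-(GP)10. Simple repeats on the same strand were found for 23.9% and 23.5% of the regions outside structured RNA and contigs. Simple repeats on the opposite strand were found for 7.95% and 13.6%, a ratio of 0.586.

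Intron regions lay opposite a SINE about as often in both lists, mostly at different places. A SINE lay opposite 55 of 75 intron regions in GFP-(GP)10 (73.3%) and 302 of 426 in untransfected cells (70.9%). By position, 12 of the 75 (16.0%) and 12 of the 426 (2.82%) were matched. By gene, the intron regions carried 82 names in GFP-(GP)10 and 429 in untransfected cells, and 16 were in both, 19.5% of the first and 3.73% of the second. The matched introns included HNRNPA2B1 (5 and 8 reads), which encodes an RNA-binding protein, GLE1 (7.98 and 15), which encodes an mRNA export factor, DGKI (8 and 24.8) and ADK (6 and 12.2). The 63 unmatched introns of GFP-(GP)10 had at most 10.0 reads, in CGREF1 and ZNF484, and each of these lies opposite a SINE. None of the 75 or of the 426 was listed in the GFP library, where 3 regions would have been 4.00% and 0.704%. Over all classes 45.1% of GFP-(GP)10 regions and 8.66% of untransfected regions were listed there, and outside rRNA 32.6% and 4.62%. The GFP list was itself 48.7% tRNA by regions. Of the 47 GFP-(GP)10 regions in repeat elements, 36 (76.6%, 62.0 to 87.7) were matched, against 16.0% (8.55 to 26.3) of its introns. One of them lies in ATXN2, with 10.0 and 17.1 reads and the same start in both lists.

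Exon and lncRNA regions of GFP-(GP)10 were few and low. The 13 exon regions had 5 to 7 reads, with 7 each in WAC, MATR3, SUB1 and TOMM22, 6 in SRSF6, which encodes a splicing factor, and 5 in ACTG1, which encodes gamma-actin. Only that in WDR90 overlapped an untransfected region (5 and 5.50 reads). The exon region most read in untransfected cells was in MATR3, with 22.3 reads, at another place in the gene. Among lncRNAs, LINC01170 had 14.0 reads in GFP-(GP)10 and no region in untransfected cells. MALAT1, a nuclear lncRNA, had 1 region with 13 reads in GFP-(GP)10 and 6 regions with 5 to 17.0 reads in untransfected cells, none of them overlapping. XIST, which coats the inactive X chromosome, had 3 regions with 5 to 7 reads against 13 with up to 76.0, and NEAT1, the scaffold of paraspeckles, was listed in untransfected cells alone, with 7, 17.0 and 26.0 reads. The NEAT1 regions of 17.0 and 26.0 reads exceed the 15.1 that correspond to the minimum of GFP-(GP)10. So do the MALAT1 region of 17.0 reads and the XIST region of 76.0, and the other untransfected regions of these 3 genes lie below it. Over all its regions MALAT1 had a ratio of shares of 0.800 (0.398 to 1.50), and XIST had 0.327 (0.186 to 0.540).

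By gene name, 98 names stood in both lists, 46.7% of the 210 in GFP-(GP)10 and 12.9% of the 762 in untransfected cells. The names with the most reads in both were those of rRNA. Gene lists were described by names with a region. The lists of cytosolic ribosomal proteins, histones and heat shock proteins had no name in either list. Neither did the list of translation factors (elongation factors, main subunits of the initiation factors, PABPC1, PABPC4 and RACK1), which does not hold EIF1, an initiation factor with an exon region of 5 reads in GFP-(GP)10. Splicing factors and hnRNPs had 2 names in GFP-(GP)10 (HNRNPA2B1 and SRSF6) and 4 in untransfected cells (HNRNPA2B1, HNRNPH1, SRPK1 and SRPK2). Nucleolar factors had 1 each, NCL and NOP58. The cytoskeleton list had ACTG1 in GFP-(GP)10 alone, and genes linked to ALS and FTD had ATXN2 and MATR3 in both lists and OPTN (11 reads) in untransfected cells alone. HNRNPH1 (7.33 reads), SRPK1 and SRPK2 (5 each), NOP58 (6) and OPTN lie below the 15.1 that correspond to the minimum of GFP-(GP)10. An equal share of these would not have been listed in GFP-(GP)10. Nuclear lncRNAs had 2 names in GFP-(GP)10 and 3 in untransfected cells.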

How the data were processed

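The 2 lists were read as deposited, 1 per library. The submitters' processing notes name featureCounts 2.0.2, bedtools 2.30.0, UMI-tools 1.1.2 and Novoalign 4.03.03, with hg38 and GRCh38.p13. Their order and the caller of regions are not stated in the sources used here. Per the file headers, one column is a count of uniquely mapped reads, and the other an expected count (estimated count) in which the authors scaled multimapping reads by a factor that is not given. Neither is normalised. Starts were taken to count from 0 where letters were read. Positions are otherwise printed as listed, and those beside the letters count from 1.

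Each region received 1 of 14 classes from the deposited types and names. RN7SK, also typed as snRNA, was classed as 7SK, and copies named for U1 or rRNA were classed by name. The low line that ends some tRNA names was dropped. Classes and repeat types with at least 5 regions in the lists together, and a region in each list, were compared. Low-complexity sequence on the same strand (0 regions in GFP-(GP)10 and 13 in untransfected cells) was therefore not compared. Repeat shares come from the deposited repeat type on each strand. Intervals of reads use counts rounded to whole numbers; scaled multimapping reads are not independent, so they are too narrow. Overlap and interval code was tested on simulated data (Python 3.11.15, scipy 1.17.1, pandas 2.3.3). Named genes are those with the most reads in each list, in one list alone, with the highest and lowest matched ratios, and up to 4 of each gene list; WDR90, the unnamed chromosome 16 region, the regions with letters and the matched introns were named after their values were seen. The members and lists were chosen with earlier results of these data known. The alternatives covered minimum reads, equal numbers of regions, reads that map to one place, contigs, repeats, names, the rRNA total and the overlap rule.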

Additional observations from a re-analysis of the deposited data

How the results depend on the processing

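No paired analysis was possible because each side has 1 library, so the groups share fewer than 2 replicate numbers. The share of tRNA kept its direction, past 2-fold, under every alternative that gave it a value; at the minimum raised to 15.1 reads untransfected cells had no tRNA region. Classes past 2-fold numbered 4 by regions and 6 by reads. They became 1 by regions and 1 by reads with at least 5 reads that map to one place. By reads they became 3 with the untransfected minimum raised, where tRNA was not compared, and 2 with reads that map to one place. Read shares of introns reversed to 5.63 at the raised minimum and to 1.37 with equal numbers of regions, the region share of rRNA reversed to 0.624 at the raised minimum, and pseudogenes reversed to 2.29 by reads without regions opposite a repeat. Read shares of exons went from 0.743 to 6.21 at the raised minimum and to 2.61 with equal numbers of regions. The read share of rRNA went from 1.33 to 0.840 (0.810 to 0.871) at the raised minimum. Repeat types past 2-fold on the same strand went from 3 to 1 with a minimum of 10 reads, to 1 at the raised minimum and to 1 without structured RNA and contigs (chosen after seeing the data); on the opposite strand they went from 3 to 0 at the raised minimum.

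The matched share of GFP-(GP)10 was 68.5% with a minimum of 10 reads, 36.2% at the raised minimum, 33.0% with at least 5 reads that map to one place, 57.1% without regions opposite a repeat and 41.5% on chromosomes 1 to 22, X and Y. That of untransfected cells was 16.6%, 76.8%, 6.04%, 24.6% and 8.96%, and 35.6% with equal numbers of regions. In the same order of the first 5 settings the median width in GFP-(GP)10 was 269, 54.5 (as over all regions), 49.0, 77.0 and 52.0 bp, and 52.0 bp outside rRNA. In untransfected cells it was 57.0, 129, 50.0 and 52.5 bp in the first 4, and 56.0 bp with equal numbers of regions. Matched groups past 2-fold went from 25 of 142 to 59 of 81 by reads that map to one place, all 59 higher. On the total outside rRNA they went to 46 of 142, all 46 higher. The totals there were 1522 against 8606 and 3170 against 12750 reads, further apart than over all scaled reads. The minimum of 5 reads therefore bears more on the direction of these ratios, and how many it fixes was not counted. tRNA regions with at least 10 reads numbered 20 against 1, and tRNA names 18 against 4. Gene-list names in untransfected cells went from 11 to 6 with equal numbers of regions, against 8 in GFP-(GP)10.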

Other observations

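Of the 98 names that stood in both lists, 11 had no overlapping region: CDYL, DDX27, DHX30, KAZN, MALAT1, MAML3, MATR3, MRE11, UBE2K, WAC and ZMIZ1. The nearest regions of such a name lay a median of 9107 bp apart, from 682 bp in MALAT1 to 130811 bp in CDYL, and 2 of the 11 were within 1000 bp. In MATR3, which encodes a nuclear RNA-binding protein linked to ALS, the exon regions lay 3346 bp apart, with 7 reads in GFP-(GP)10 and 22.3 in untransfected cells. In DDX27, an RNA helicase gene, the region of GFP-(GP)10 had 10.0 reads and that of untransfected cells 5. No hypothesis was tested on these values.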
